A study of Danio rerio with 6 samples.

Results

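The 10 genes described here carry out calcium handling in muscle fibers. They are 4 parvalbumins that buffer calcium in the cytosol (*pvalb1*, *pvalb2*, *pvalb3* and *pvalb4*), the calcium pump of the sarcoplasmic reticulum *atp2a1*, 3 calsequestrins that hold calcium inside the reticulum (*casq1a*, *casq1b* and *casq2*) and a pair of ryanodine receptors that release it (*ryr1b* and *ryr3*). They were chosen by gene name from the 32520 genes of the table, and all 10 were found. All 10 also passed the filter on low values, a mean of at least 0.5 RPKM over the 6 libraries. RPKM is the number of reads per kilobase of gene for each 1e6 reads of the library.

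RNA was sequenced from whole zebrafish larvae at 4 dpf (days post fertilization), with 60 larvae pooled for each of 6 libraries, 3 of WT (AB) and 3 of *mgt* (maggot). The study used *mgt* larvae homozygous for a chemically induced mutation of *plod3*, a lysyl hydroxylase and glycosyltransferase that modifies collagens, and the labels call them *plod3* KO. A single allele was sequenced, and the RNA of every tissue of 60 larvae was pooled, so fewer muscle fibers and less RNA per fiber cannot be told apart in these values. The labels call the pools biological replicates, while a figure legend of the study calls them technical, and the SD and p-values below cover the spread between these pools. Every WT pool carries one batch number and every *mgt* pool another, so batch and genotype cannot be told apart.

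In a muscle fiber, a voltage sensor in the membrane opens ryanodine receptors in the sarcoplasmic reticulum, and the calcium that leaves the reticulum starts contraction. Relaxation follows when parvalbumin binds calcium in the cytosol and SERCA pumps return it to the reticulum, where calsequestrin stores it. Fast fibers, which make up most of the trunk muscle of fish larvae, are rich in parvalbumin.

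Library totals were between 38.35 and 50.28 in units of 1e6 reads. The first principal component held 83.5% of the variance, and WT replicate 1 lay 0.53 of the way from the other WT libraries to the *mgt* libraries along it, so the main results are also given without that library. The median gene was 0.29 higher in *mgt* on the log2 scale, and log2 fold changes rose with gene span across genes (Spearman rho 0.32, a description over genes, which are not replicates). *plod3* itself was measured at 16.76, 15.34 and 14.21 RPKM in WT and at 23.92, 24.28 and 24.37 RPKM in *mgt*, which does not check the labels because a base change is not seen in RPKM. The summed RPKM of 36 fast muscle structure genes was 29771 in WT replicate 1, 43767 and 50467 in the other WT libraries and between 31245 and 33134 in *mgt*. The sum of 13 neuron markers moved the other way, with 960 in WT replicate 1, 352 and 424 in the other WT libraries and between 991 and 1042 in *mgt*. The part of these differences in tissue content in the results below was not tested.

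Of the 10 genes, 3 fell in *mgt* (*pvalb3*, *pvalb4* and *casq1a*) and 3 rose (*atp2a1*, *ryr1b* and *ryr3*). The 4 others (*pvalb1*, *pvalb2*, *casq1b* and *casq2*) did not pass the test. A gene was called when its adjusted p was below 0.05 and the higher genotype exceeded the lower by at least 25%, from limma on log2(RPKM + 0.5) with Benjamini-Hochberg (BH) adjustment over all 20435 genes tested. Fold changes are on that scale, which understates those of low genes. Over all genes tested, 31.8% were called higher and 15.6% lower. The *mgt* libraries were all above the WT libraries in 3 of the 10 genes, against 41.7% of all genes, and all below them in 5 of the 10, against 21.6% of all genes. Without WT replicate 1, 3 genes were called higher and 6 lower, and the background was 52.2% higher and 18.1% lower. The median log2 fold change of the 10 genes was -0.47, or -0.67 without that library. Relative to the median gene, the log2 fold changes of the called genes were 0.39 for *atp2a1*, 0.49 for *ryr1b* and 0.71 for *ryr3*, and -0.97 for *pvalb3*, -1.15 for *pvalb4* and -1.22 for *casq1a*.

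The calls on *pvalb4* and *ryr3* were kept whichever library was left out. That on *pvalb3* was lost without WT replicate 2 or any *mgt* library (limma, BH-adjusted p = 0.057 to 0.069), and that on *casq1a* without any library other than WT replicate 1 (0.066 to 0.11). The call on *atp2a1* was lost without WT replicate 3 or any *mgt* library (limma, BH-adjusted p = 0.055 to 0.088), and that on *ryr1b* without WT replicate 3, *mgt* replicate 1 or *mgt* replicate 2 (0.05 to 0.064).

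**Figure D1:**
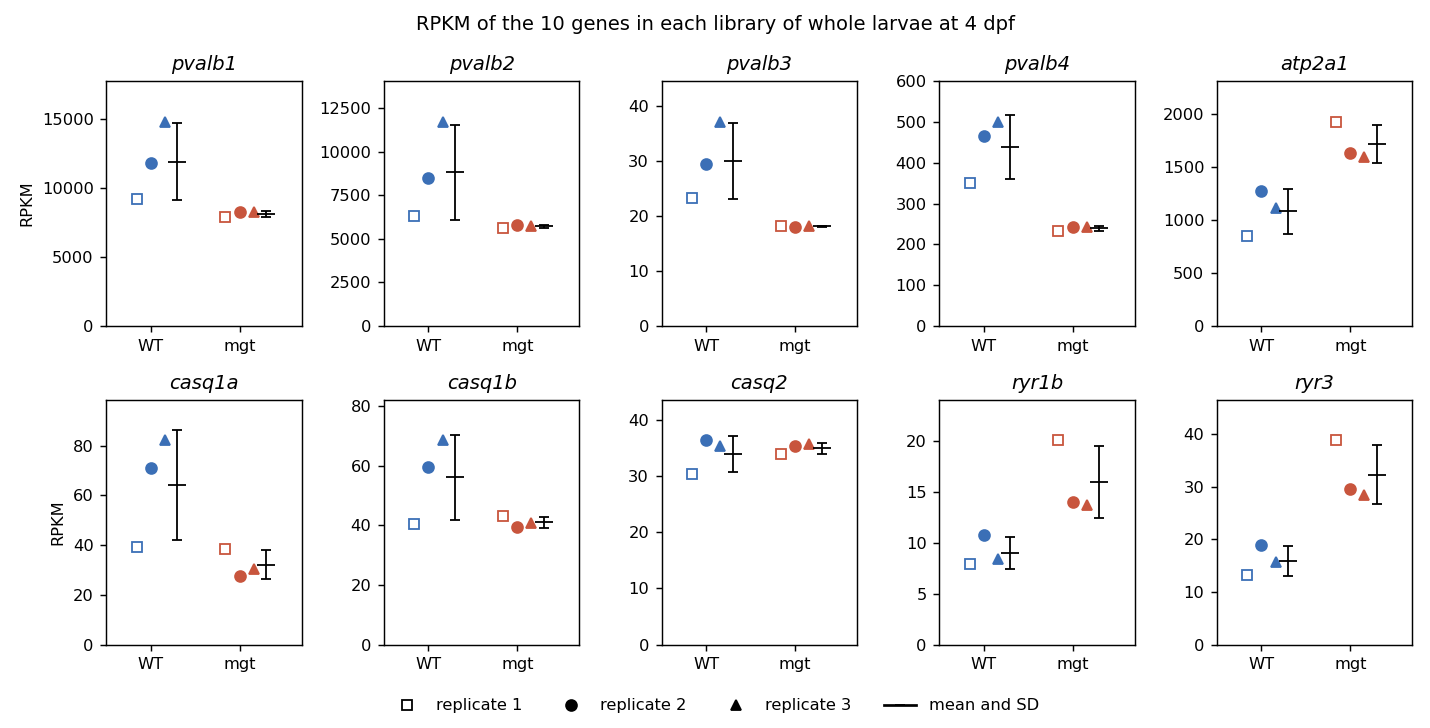
RPKM (vertical axes, starting at 0) of the 10 genes in the 3 WT and 3 *mgt* libraries, with each replicate as a point (replicate 1 open) and the mean and SD of each genotype at its right. The points of *pvalb1* to *pvalb4* and *casq1a* lie lower in *mgt* without overlap, those of *atp2a1*, *ryr1b* and *ryr3* lie higher without overlap, and those of *casq1b* and *casq2* overlap.

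Parvalbumin 1 and parvalbumin 2 were among the most abundant RNAs of the larvae. By mean RPKM over the 6 libraries *pvalb1* ranked 1 and *pvalb2* ranked 3 among all genes. *pvalb1* (ENSDARG00000037789, chr3:61193890-61205711, GRCz11) was measured at 9169, 11790 and 14791 RPKM in WT replicates 1, 2 and 3 and at 7862, 8233 and 8277 RPKM in *mgt*. The *mgt* values were all lower and close together, with WT replicate 1 the nearest to them. The mean was 11917 ± 2813 RPKM (SD, n = 3) in WT and 8124 ± 228 RPKM (SD, n = 3) in *mgt*. The log2 fold change was -0.53 (SE 0.20) and did not pass (adjusted p = 0.067, limma with BH adjustment). An exact permutation test of the means gave p = 0.10, the smallest that 3 against 3 libraries allow and the value for every gene below whose groups do not overlap.

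*pvalb2* (ENSDARG00000002768, chr12:17710425-17712498) was measured at 6290, 8494 and 11706 RPKM in WT and at 5647, 5816 and 5712 RPKM in *mgt*. The groups did not overlap, and WT replicate 1 was again the WT library nearest to *mgt*. The mean was 8830 ± 2724 RPKM (SD, n = 3) in WT and 5725 ± 85.1 RPKM (SD, n = 3) in *mgt*. This log2 fold change of -0.58 (SE 0.23) did not pass (limma, BH-adjusted p = 0.079). Without WT replicate 1 the log2 fold changes of *pvalb1* and *pvalb2* were -0.70 and -0.80, and both were called lower (limma, BH-adjusted p = 0.00072 and 0.001). Against WT replicate 1 alone, *mgt* differed by -0.17 for *pvalb1* and -0.14 for *pvalb2* on the log2 scale.

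*pvalb4* and *pvalb3* fell. *pvalb4* (ENSDARG00000024433, chr3:61174750-61185746) was measured at 351.3, 466.7 and 500.6 RPKM in WT and at 232.9, 241.8 and 242.7 RPKM in *mgt*. Its log2 fold change was -0.86 (SE 0.15; limma, BH-adjusted p = 0.006), -1.01 without WT replicate 1 and -0.55 against that library alone. *pvalb3* (ENSDARG00000022817, chr12:17705218-17707517) was measured at 23.29, 29.50 and 37.06 RPKM in WT and at 18.12, 18.03 and 18.18 RPKM in *mgt*. The *mgt* libraries differed from each other by far less than the WT libraries did, with an SD of 0.0755 RPKM against 6.90 RPKM. The log2 fold change of *pvalb3* was -0.69 (SE 0.17; limma, BH-adjusted p = 0.019), and -0.85 without WT replicate 1.

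Some of the parvalbumin genes stand close together in the genome. *pvalb4* and *pvalb1* are 8143 bases apart on chromosome 3, and *pvalb3* and *pvalb2* are 2907 bases apart on chromosome 12. The paralogs are similar in sequence, and how the counting divided reads shared between them is not given in the sources used here, so the split of reads among them is uncertain.

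Of the 9 parvalbumin genes measured, 6 fell, none rose (limma; 0 at an unadjusted p below 0.05) and 3 did not pass, where 15.6% of all genes fell and 31.8% rose. Besides *pvalb3* and *pvalb4*, these were *pvalb5*, *pvalb7*, *pvalb8* and *pvalb9*. *pvalb8*, which lies 31139 bases from *pvalb1*, showed the largest difference of the 9. It was measured at 214.5, 270.1 and 288.0 RPKM in WT and at 68.08, 75.38 and 72.14 RPKM in *mgt*, with no overlap and with WT replicate 1 well above every *mgt* library. Its log2 fold change was -1.82 (limma, BH-adjusted p = 0.00032), and -1.57 against WT replicate 1 alone.

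*pvalb9* was measured at 37.96, 61.49 and 66.14 RPKM in WT and at 20.09, 19.50 and 23.03 RPKM in *mgt*, a log2 fold change of -1.35, or -1.59 without WT replicate 1. *pvalb5* was measured at 40.45, 34.22 and 37.65 RPKM in WT and at 17.11, 19.22 and 18.22 RPKM in *mgt*, a log2 fold change of -1.02, or -0.96 without WT replicate 1. In *pvalb5* WT replicate 1 was the highest library of all, unlike in the 10 genes, each of which was at its lowest WT level in that library.

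*pvalb7*, a marker of cerebellar Purkinje cells in zebrafish, was measured at 14.19, 16.35 and 15.91 RPKM in WT and at 9.30, 9.74 and 9.22 RPKM in *mgt*, a log2 fold change of -0.69, or -0.75 without WT replicate 1. Of 7 other Purkinje cell markers tested, 3 rose (*skor2*, *foxp4* and *lhx1a*), 1 fell (*aldoca*, log2 fold change -0.72) and 3 did not pass. Over all genes tested, 31.8% rose and 15.6% fell. Of those that did not pass, *ca8* was, like *aldoca*, lower in every *mgt* library (6.2, 5.05 and 5.86 RPKM in WT, 4.8, 4.49 and 4.82 RPKM in *mgt*). *gad2* was higher in every *mgt* library (29.01, 4.69 and 8.41 RPKM in WT, 34.7 to 36.36 RPKM in *mgt*), and *gad1b* overlapped. The summed RPKM of the 8 markers on that list was 126.1, 39.4 and 53.4 in WT and between 144.3 and 150.2 in *mgt*. In every *mgt* library *gad1b* and *gad2* were the most abundant of these markers. How specific each marker is to Purkinje cells was not tested. *pvalb6* was measured at 23.80, 9.00 and 10.27 RPKM in WT and at 23.01, 21.53 and 24.10 RPKM in *mgt*. Its log2 fold change of 0.79 did not pass (limma, BH-adjusted p = 0.096), WT replicate 1 lay within the *mgt* values, and without that library *pvalb6* was called higher.

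The shares of *pvalb1* and *pvalb2* in the parvalbumin RNA overlapped between genotypes. Summed over the 9 genes, it came to 16165, 21171 and 27453 RPKM in WT and 13898, 14454 and 14397 RPKM in *mgt*. *pvalb1* made up 55.4% ± 1.44 (SD, n = 3) of the sum in WT and 57.0% ± 0.464 in *mgt* (exact permutation p = 0.20). *pvalb2* made up 40.6% ± 1.90 in WT and 40.2% ± 0.482 in *mgt* (exact permutation p = 0.90). The share of *pvalb4* was lower in every *mgt* library, with 2.07% ± 0.211 against 1.68% ± 0.0069, and so was that of *pvalb8*, with 1.22% ± 0.148 against 0.504% ± 0.0161 (exact permutation p = 0.10 for each). The share of *pvalb1* was higher in *mgt* by 2.23 percentage points without WT replicate 1, and that of *pvalb4* differed by -0.336. *pvalb1* to *pvalb4* together held 3.30%, 3.99% and 4.95% of all summed RPKM in WT and 3.18%, 3.25% and 3.24% in *mgt*. These shares do not depend on the scaling of a library.

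**Figure D2:**
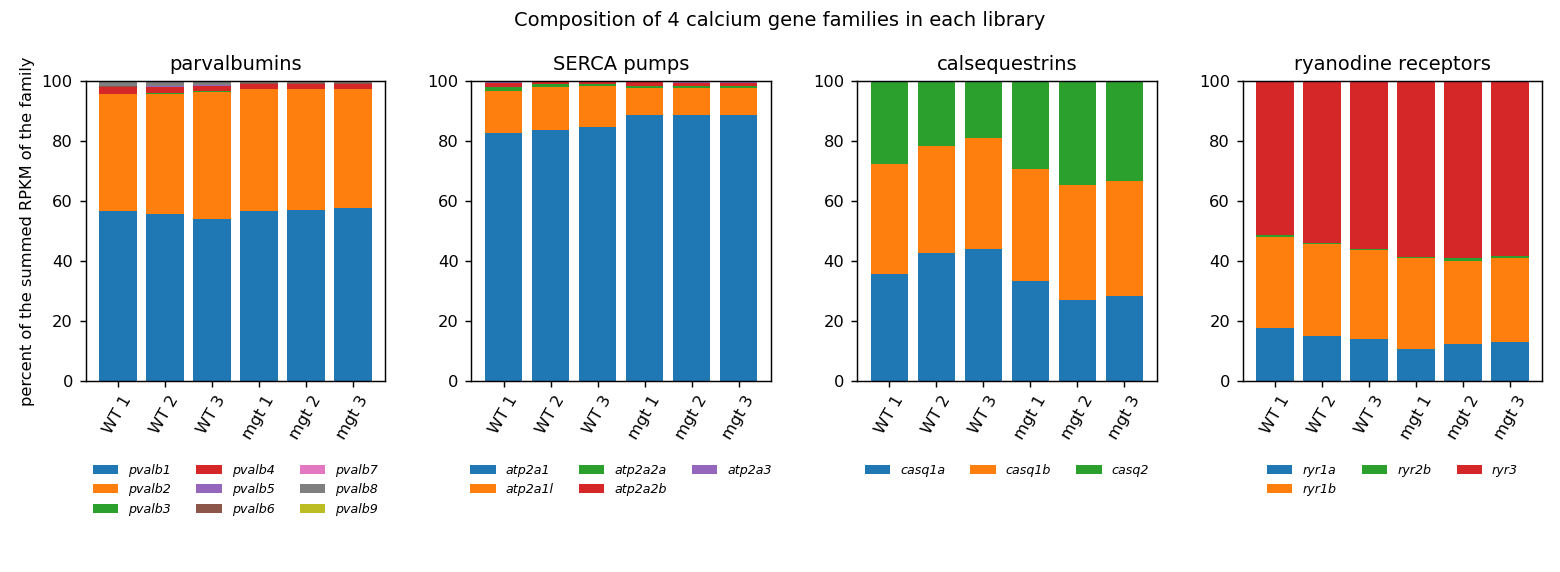
Percent of the summed RPKM of a family (vertical axis, 0 to 100) taken by each of its genes, as stacked bars for the 6 libraries, for parvalbumins, SERCA pumps, calsequestrins and ryanodine receptors. *pvalb1* and *pvalb2* keep similar shares, while *mgt* libraries hold larger shares of *atp2a1* (88.7% against 83.6% on average), *casq2* (32.4% against 22.8%) and *ryr3* (58.7% against 53.8%). The part of gene span in these shares was not tested.

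The calcium pump rose in *mgt*. *atp2a1*, which encodes SERCA1, the pump of fast fibers that carries calcium back into the reticulum, ranked 51 among all genes (ENSDARG00000020574, chr3:26081343-26157066). It was measured at 850.6, 1275 and 1116 RPKM in WT and at 1923, 1625 and 1593 RPKM in *mgt*. All *mgt* libraries lay above all WT libraries, and WT replicate 1 was the lowest of the 6, on the far side from *mgt*. The mean was 1080 ± 214 RPKM (SD, n = 3) in WT and 1714 ± 182 RPKM (SD, n = 3) in *mgt*. For *atp2a1* the log2 fold change came to 0.68 (SE 0.18; limma, BH-adjusted p = 0.022). It was 0.52 without WT replicate 1 and 1.00 against that library alone.

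The call on *atp2a1* depended on the processing. With a trend of each library's values with gene span subtracted, the log2 fold change was 0.34 (limma, BH-adjusted p = 0.22). With median-of-ratios factors it was 0.38 (limma, BH-adjusted p = 0.33), where the median gene was 0.03 higher in *mgt*. 4 other named genes lie within the span of *atp2a1* (*hsp70.1*, *hsp70.2*, *hsp70.3* and *zgc:162612*). Their mean levels were at most 8.99 RPKM, all higher in *mgt*, and the sources used here do not give whether the counting used strand.

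The share of *atp2a1* among the SERCA genes was higher in *mgt*. *atp2a1l*, a paralog of *atp2a1*, was measured at 142.6, 218.8 and 183.2 RPKM in WT and at 195.4, 167.1 and 158.1 RPKM in *mgt*, so that the groups overlapped (log2 fold change -0.05, with a sign that changed with the scaling). *atp2a1* made up 82.7%, 83.6% and 84.5% of the summed SERCA RPKM in WT and 88.8%, 88.5% and 88.8% in *mgt*, and *atp2a1l* made up 14.0% ± 0.276 in WT and 8.98% ± 0.149 in *mgt* (SD, n = 3 each; exact permutation p = 0.10 for each share). *atp2a1* spans 75.7 kb and *atp2a1l* 19.5 kb, and the part of gene span in these shares was not tested. *atp2a2b*, of the SERCA2 type used in heart and slow fibers, rose from 14.19, 13.18 and 7.50 RPKM in WT to 24.43, 23.03 and 21.76 RPKM in *mgt* (log2 fold change 1.01, called, and 1.17 without WT replicate 1). That call was lost without any *mgt* library (limma, BH-adjusted p = 0.055 to 0.064). Its paralog *atp2a2a* was measured at 9.71 to 13.28 RPKM in WT and at 11.98 to 12.46 RPKM in *mgt*. *atp2a3*, of the SERCA3 type, was measured at 7.89, 4.87 and 3.47 RPKM in WT and at 9.83, 8.73 and 8.14 RPKM in *mgt* and did not pass (log2 fold change 0.73).

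Within the same libraries, *atp2a1* and the parvalbumins went apart. For each 100 RPKM of *pvalb1* to *pvalb4*, the WT libraries held 5.37, 6.13 and 4.13 RPKM of *atp2a1* and the *mgt* libraries 14.0, 11.4 and 11.2 RPKM. The lowest *mgt* value was 1.83 times the highest WT value. This ratio was chosen after its values were seen and has no test. It sets a gene of 75.7 kb against genes of 2.07 to 11.8 kb, and the part of gene span in it was not tested.

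Among the calsequestrins, *casq1a* fell, and *casq1b* and *casq2* did not pass the test. *casq1a* (ENSDARG00000038716, chr2:38039857-38054482) was measured at 39.39, 71.16 and 82.08 RPKM in WT and at 38.57, 27.57 and 30.32 RPKM in *mgt*. The groups did not overlap, but WT replicate 1 and *mgt* replicate 1 differed by less than 1 RPKM. The mean was 64.2 ± 22.2 RPKM (SD, n = 3) in WT and 32.2 ± 5.72 RPKM (SD, n = 3) in *mgt*. For *casq1a* the log2 fold change was -0.93 (SE 0.28; limma, BH-adjusted p = 0.036). It was -1.25 without WT replicate 1 and -0.30 against that library alone.

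*casq1b*, the other paralog of the skeletal muscle calsequestrin (ENSDARG00000018105, chr7:73717581-73752955), was measured at 40.45, 59.50 and 68.59 RPKM in WT and at 43.09, 39.50 and 40.74 RPKM in *mgt*. WT replicate 1 lay among the *mgt* values, and the log2 fold change of -0.41 (SE 0.19) did not pass (limma, BH-adjusted p = 0.11). Without WT replicate 1 it was -0.63, and *casq1b* was called lower (limma, BH-adjusted p = 0.00027).

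*casq2*, the cardiac calsequestrin of mammals (ENSDARG00000008982, chr9:33097289-33107237), was measured at 30.35, 36.37 and 35.30 RPKM in WT and at 33.87, 35.44 and 35.68 RPKM in *mgt*. The groups overlapped, with a log2 fold change of 0.04 (SE 0.10; limma, BH-adjusted p = 0.72), and its sign changed with the scaling. The summed RPKM of the heart markers was 237 to 372 in WT and 327 to 346 in *mgt*. Its largest part was *actc1a* (ENSDARG00000042535), at 145.3, 220.6 and 257.4 RPKM in WT and 171.7 to 183.9 RPKM in *mgt*. Of 11 heart genes tested, 5 were called higher (*nppa*, *nppb*, *myh6*, *tnni1b* and *tnnc1a*) and 0 lower, against 31.8% and 15.6% of all genes. Without WT replicate 1, 4 were higher and 1 lower, against 52.2% and 18.1%. All *mgt* libraries were above WT in 8 of the 11, against 41.7% of all genes.

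The make-up of the calsequestrin RNA differed between genotypes without overlap. *casq1a* made up 40.8% ± 4.47 (SD, n = 3) of it in WT and 29.6% ± 3.40 in *mgt*, and *casq2* made up 22.8% ± 4.37 in WT and 32.4% ± 2.76 in *mgt* (exact permutation p = 0.10 for each). The shares of *casq1a* and *casq2* differed by -13.8 and 12.1 percentage points without WT replicate 1. In WT replicates 2 and 3 *casq1a* was the most abundant of the 3 genes and *casq2* the least. In every *mgt* library *casq1b* was the most abundant, with 37.3% to 38.5% of the sum. In WT replicate 1 *casq1b* was also the most abundant, with 36.7%. The shares of *casq1a* and *casq2* in that library were 35.7% and 27.5%, between those of the other WT libraries and those of *mgt*.

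Both ryanodine receptors among the 10 genes rose. *ryr3* (ENSDARG00000071331, chr20:29268444-29420713) was the most abundant ryanodine receptor per kilobase in every library. It was measured at 13.24, 18.86 and 15.66 RPKM in WT and at 38.84, 29.56 and 28.54 RPKM in *mgt*. The lowest *mgt* library was above the highest WT library, and WT replicate 1 was the farthest of all from *mgt*. The mean was 15.9 ± 2.82 RPKM (SD, n = 3) in WT and 32.3 ± 5.68 RPKM (SD, n = 3) in *mgt*. The log2 fold change was 1.00 (SE 0.17; limma, BH-adjusted p = 0.0067), and 0.88 without WT replicate 1. Another gene, *aven*, overlaps the span of *ryr3*. The mean level of *aven* was 5.68 RPKM, and it was lower in every *mgt* library than in every WT library.

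*ryr1b*, the receptor of fast fibers in zebrafish (ENSDARG00000023797, chr18:35491473-35736591), was measured at 7.87, 10.73 and 8.35 RPKM in WT and at 20.02, 14.01 and 13.72 RPKM in *mgt*. The groups did not overlap, and *mgt* replicate 1 was the highest library, as it was for *ryr3* and *atp2a1*. The log2 fold change was 0.78 (SE 0.19; limma, BH-adjusted p = 0.018), and 0.70 without WT replicate 1. *ryr1a*, the paralog used in slow fibers, was measured at 4.49, 5.19 and 3.90 RPKM in WT and at 7.03, 6.07 and 6.34 RPKM in *mgt* (log2 fold change 0.48, called, but -0.003 with the span trend subtracted). Its call was also lost without WT replicate 3 or any *mgt* library (limma, BH-adjusted p = 0.079 to 0.12). *ryr2b* was between 0.07 and 0.39 RPKM in every library and was not tested because its mean was below 0.5 RPKM.

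The rise of the receptors went with gene span. The 3 genes called higher have the longest spans of the 10, 75.7 kb for *atp2a1*, 152 kb for *ryr3* and 245 kb for *ryr1b*, against 2.07 to 35.4 kb for the others. With the span trend subtracted, 3 of the 10 genes were called lower (*pvalb3*, *pvalb4* and *casq1a*) and none higher (limma; 1 passed on p alone, *casq2* at a log2 fold change of 0.24, with a BH-adjusted p of 0.047 and less than the fold required), where 30.1% of all genes were called higher and 13.4% lower. The log2 fold changes of *ryr3* and *ryr1b* were then 0.48 and 0.14 (limma, BH-adjusted p = 0.14 and 0.67). The part of gene span in these differences was not tested beyond this subtraction.

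Summed over *ryr1a*, *ryr1b*, *ryr2b* and *ryr3*, ryanodine receptor RNA came to 25.7, 34.9 and 28.0 RPKM in WT and to 66.3, 50.0 and 48.9 RPKM in *mgt*. The share of *ryr3* was 53.8% ± 2.26 (SD, n = 3) in WT and 58.7% ± 0.408 in *mgt*, and that of *ryr1a* 15.4% ± 1.82 and 11.9% ± 1.19 (exact permutation p = 0.10 for each). The share of *ryr3* was higher in *mgt* by 3.67 percentage points when WT replicate 1 was left out. The share of *ryr1b* was 30.4% ± 0.485 and 28.8% ± 1.26 and overlapped (exact permutation p = 0.20). For each 100 RPKM of the 3 calsequestrins, *ryr1b* and *ryr3* together came to 19.2, 17.7 and 12.9 RPKM in WT and to 50.9, 42.5 and 39.6 RPKM in *mgt*, a ratio chosen after its values were seen that has no test. The calsequestrin genes span 9.95 to 35.4 kb, and the part of gene span in this ratio was not tested either.

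**Figure D3:**
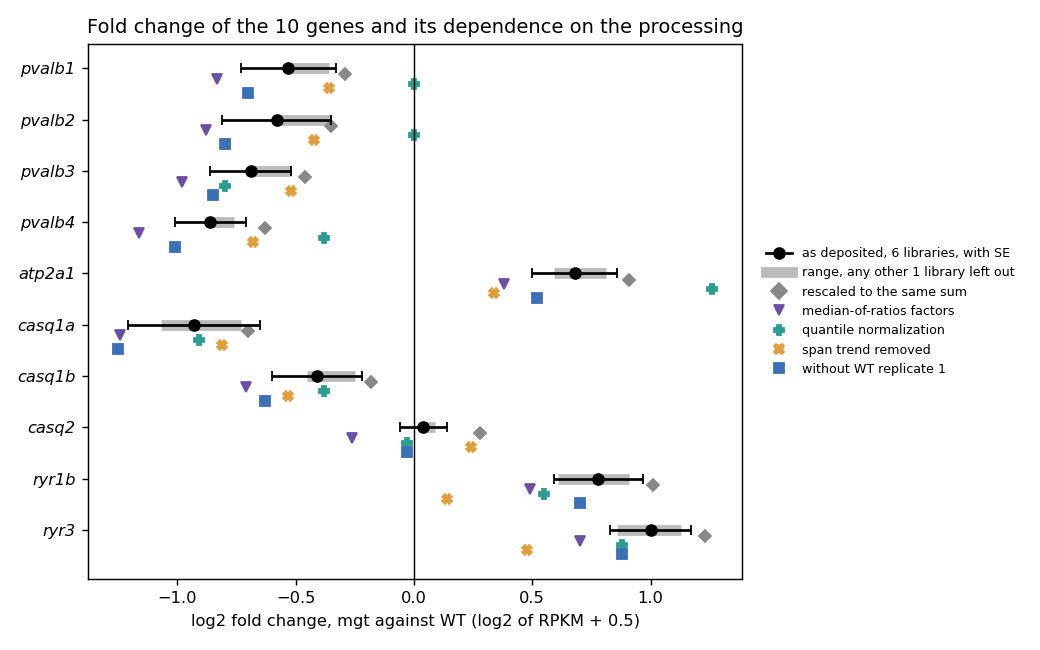
Log2 fold change of *mgt* against WT (horizontal axis) of the 10 genes, with the SE as bars on the black points, grey bands for the range when any library other than WT replicate 1 is left out, and symbols for other processing. The parvalbumins and *casq1a* lie below 0 and *ryr3*, *ryr1b* and *atp2a1* above 0 in every setting drawn, except that quantile normalization gives 0 for *pvalb1* and *pvalb2*, and the sign of *casq2* changes.

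By RPKM level the 10 genes fell into clearly separate steps at the top and a mixed group below. In each of the 6 libraries *pvalb1* was above *pvalb2*, and *pvalb2* above *atp2a1*, and *atp2a1* above *pvalb4*. Below these, *casq1a*, *casq1b*, *casq2*, *pvalb3* and *ryr3* had WT means from 15.9 to 64.2 RPKM, and *ryr1b* was the lowest in every library but *mgt* replicate 1, where *pvalb3* was. *casq1a* and *casq1b* did not differ beyond their spread in WT (64.2 ± 22.2 and 56.2 ± 14.4 RPKM), nor *casq2* and *pvalb3* (34.0 ± 3.21 and 29.9 ± 6.90 RPKM). In *mgt* *ryr3* (32.3 ± 5.68 RPKM) lay above *pvalb3* (18.1 ± 0.0755 RPKM) in every library, whereas in WT it lay below it in every library. Levels of different genes rest on the gene lengths used for RPKM, which the sources used here do not state.

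The 10 genes were then set against the fast muscle structure genes of the same library. Each value is log2 of the ratio of a gene to the summed RPKM of that list. This ratio does not change with the scaling of a library. Beside contractile genes the list holds the creatine kinase genes *ckma* and *ckmb*. Their mean RPKM was 2828 and 2444 in WT and 3677 and 2993 in *mgt*, and neither was called. The part of these genes in the differences below was not tested. Of the 36 genes of that list 3 were called higher in *mgt* and 10 lower, with a median log2 fold change of -0.28, where 31.8% of all genes were higher and 15.6% lower. Without WT replicate 1, 3 were called higher and 23 lower (median -0.50), against 52.2% and 18.1% of all genes. At the same sum per library 6 were called higher and 4 lower, against 43.3% and 9.3% of all genes. On this scale all 10 genes differed between genotypes without overlap (exact permutation p = 0.10 for each), *casq2* by as little as 0.01 between its closest libraries. The share of all genes without overlap on this scale was not computed, so the count is not a result about the 10 genes. In RPKM itself, 41.7% of all genes tested were higher and 21.6% lower in *mgt* without overlap. The difference in the log2 ratio was 1.35 for *ryr3*, 1.15 for *ryr1b* and 1.01 for *atp2a1*, and 0.38 for *casq2*. It was -0.62 for *casq1a*, -0.53 for *pvalb4*, -0.37 for *pvalb3*, -0.25 for *pvalb2*, -0.20 for *pvalb1* and -0.09 for *casq1b*. This ratio does not remove the trend with gene span. *ryr3*, *ryr1b* and *atp2a1* span 152, 245 and 75.7 kb, and *actc1b*, the most abundant gene of the list, spans 8.07 kb. The part of gene span in these differences was not tested.

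Relative to fast muscle structure, WT replicate 1 was for none of the 4 parvalbumins the WT library nearest to *mgt*, while for *casq1a*, *casq2*, *ryr1b* and *ryr3* it was. *casq1b* stood at -9.52 in each WT library and at -9.58 to -9.66 in *mgt*. *atp2a1* was at -5.13, -5.10 and -5.50 in WT and at -4.11, -4.30 and -4.29 in *mgt*. Against WT replicate 1 alone, the differences were 0.90 for *atp2a1*, 0.88 for *ryr1b* and 1.16 for *ryr3*, and -0.66 for *pvalb4*, -0.28 for *pvalb1* and -0.42 for *casq1a*. For *casq2* the difference was 0.10 against WT replicate 1 and 0.51 against the other WT libraries. Slow muscle structure genes summed to 1081, 1477 and 1572 RPKM in WT and to between 980 and 1004 RPKM in *mgt*.

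**Figure D4:**
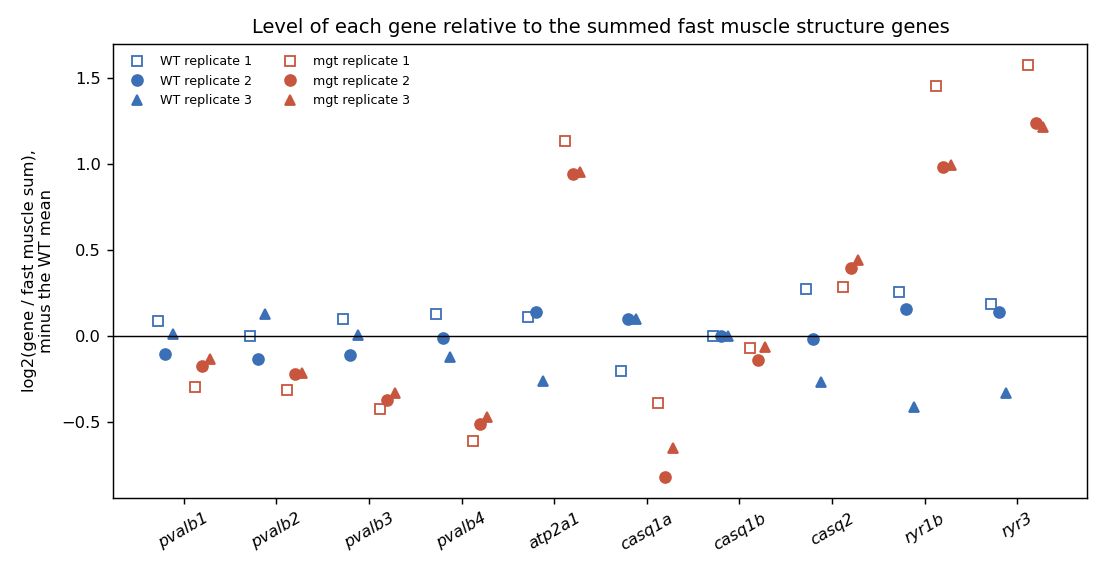
Log2 ratio of each gene to the summed RPKM of the fast muscle structure genes in the same library, with the WT mean of each gene subtracted (vertical axis), for the 3 WT and 3 *mgt* libraries. The *mgt* points of *atp2a1*, *ryr1b* and *ryr3* lie about 1 log2 unit or more above WT on average (1.01, 1.15 and 1.35), and those of the parvalbumins and *casq1a* lie below WT (-0.20 to -0.62).

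The other genes of calcium handling were taken from 6 lists, in which 83 of 104 names were found and 84 genes were tested. Of these, 24 rose, 11 fell and 49 did not pass, with a median log2 fold change of 0.27, against 0.29 over all genes tested. These counts are 28.6% and 13.1% of the genes tested, near the 31.8% and 15.6% of all genes. Without WT replicate 1, 45 rose and 16 fell, and with median-of-ratios factors 11 rose and 13 fell. In each list below the same background holds, 31.8% higher and 15.6% lower, or 52.2% and 18.1% without WT replicate 1. With median-of-ratios factors the background was 23.8% higher and 24.4% lower, here and in each list below.

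Of 19 genes of calcium pumps, exchangers and their regulators, 11 rose and none fell (limma; 0 at an unadjusted p below 0.05), with a median log2 fold change of 1.01. Leaving out WT replicate 1 gave 16 that rose, and median-of-ratios factors gave 9. *srl*, which encodes sarcalumenin, a calcium-binding protein of the reticulum, rose from 24.39, 31.69 and 29.29 RPKM to 40.83, 37.03 and 36.20 RPKM (log2 fold change 0.42). Its call was lost with median-of-ratios factors (0.12), quantile normalization, the span trend subtracted (0.15), the replicate block and no filter, and without any library other than WT replicate 2 (0.31 without WT replicate 1, less than the fold required). *atp2b3a*, a calcium pump of the plasma membrane, was measured at 24.96, 5.44 and 7.20 RPKM in WT and at 27.63, 28.46 and 29.12 RPKM in *mgt* and did not pass (log2 fold change 1.46; 2.10 without WT replicate 1). WT replicate 1 was near *mgt* in *atp2b3a*, as in the neuron markers, and was the WT library farthest from *mgt* in *srl*. In every other called gene of this list WT replicate 1 lay above the mean of the other WT libraries, on the side of *mgt*. The gap ran from 0.25 for *slc8a1a* to 1.79 for *atp2b3b* on the log2 scale.

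Among 19 genes of calcium storage and the junction between membrane and reticulum, 5 rose, 2 fell and 12 did not pass, with a median of 0.07. The split was 8 and 5 without WT replicate 1, and 1 and 3 with median-of-ratios factors. *hrc* (ENSDARG00000045947), whose product is a histidine-rich calcium-binding protein in the lumen of the reticulum, had the largest difference. It was measured at 134.9, 183.3 and 193.0 RPKM in WT and at 59.60, 45.82 and 49.88 RPKM in *mgt*. The groups lay far apart, WT replicate 1 included, and the log2 fold change was -1.70 (limma, BH-adjusted p = 0.001), or -1.86 without that library. Of the other genes named *hrc*, ENSDARG00000109442 overlapped and did not pass (-0.21), and ENSDARG00000063347 was too low to be tested. *tmem38a*, which encodes a cation channel of the reticulum, was measured at 149.4 to 232.7 RPKM in WT and 197.3 to 211.5 RPKM in *mgt* and did not pass. *calr3a*, a calreticulin gene, was measured at 109.8 to 135.9 RPKM in WT and 98.2 to 103.7 RPKM in *mgt* and did not pass (log2 fold change -0.28).

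Among 25 genes of calcium release and the voltage sensor, 5 rose, 3 fell and 17 did not pass, with a median of 0.19. When WT replicate 1 was left out 13 rose and 5 fell, and with median-of-ratios factors 1 rose and 4 fell. *cacna1sb*, the pore-forming subunit of the voltage sensor, rose from 7.04, 10.62 and 8.60 RPKM to 18.06, 14.55 and 14.01 RPKM (log2 fold change 0.80), with WT replicate 1 the lowest library. The call was lost with median-of-ratios factors, after quantile normalization and without *mgt* replicate 1 (limma, BH-adjusted p = 0.12, 0.073 and 0.058). *fkbp1aa*, a partner of ryanodine receptors, fell from 326.5, 366.9 and 410.4 RPKM to 283.0, 293.0 and 291.5 RPKM (log2 fold change -0.34). Quantile normalization turned its sign, and its call was lost without any library other than WT replicate 1 (limma, BH-adjusted p = 0.085 to 0.13). *calm3a* (ENSDARG00000015050), a calmodulin gene, fell from between 290.2 and 306.1 RPKM to between 214.9 and 221.3 RPKM (log2 fold change -0.45), a call lost at the same sum, with quantile normalization and with the span trend subtracted. Another gene of the same name (ENSDARG00000100825) overlapped, with means of 62.0 RPKM in WT and 62.1 RPKM in *mgt* (0.01). The calmodulin gene *calm3b* did not pass (0.26).

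Of 8 genes of store-operated calcium entry, 1 rose (*orai2*) and none fell (limma; 0 at an unadjusted p below 0.05), and the most abundant, *stimate*, *stim1a* and *orai1b*, did not pass. Of these, 4 rose without WT replicate 1, and 0 with median-of-ratios factors (limma; 0 at an unadjusted p below 0.05). Of 8 genes of mitochondrial calcium uptake, 2 rose and 2 fell, or 3 and 2 without WT replicate 1. *smdt1b* and *smdt1a*, which encode a regulator of the mitochondrial calcium uniporter, were those that fell. *smdt1b* was measured at 114.1, 163.2 and 158.4 RPKM in WT and at 69.83, 73.84 and 76.89 RPKM in *mgt* (log2 fold change -0.96), and *smdt1a* at 54.54, 60.15 and 75.88 RPKM in WT and at 41.75, 38.68 and 39.22 RPKM in *mgt* (-0.65). Their log2 fold changes were -1.12 and -0.75 without WT replicate 1, and the call on *smdt1a* was lost without *mgt* replicate 2 or *mgt* replicate 3 (limma, BH-adjusted p = 0.052 to 0.054).

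**Figure D5:**
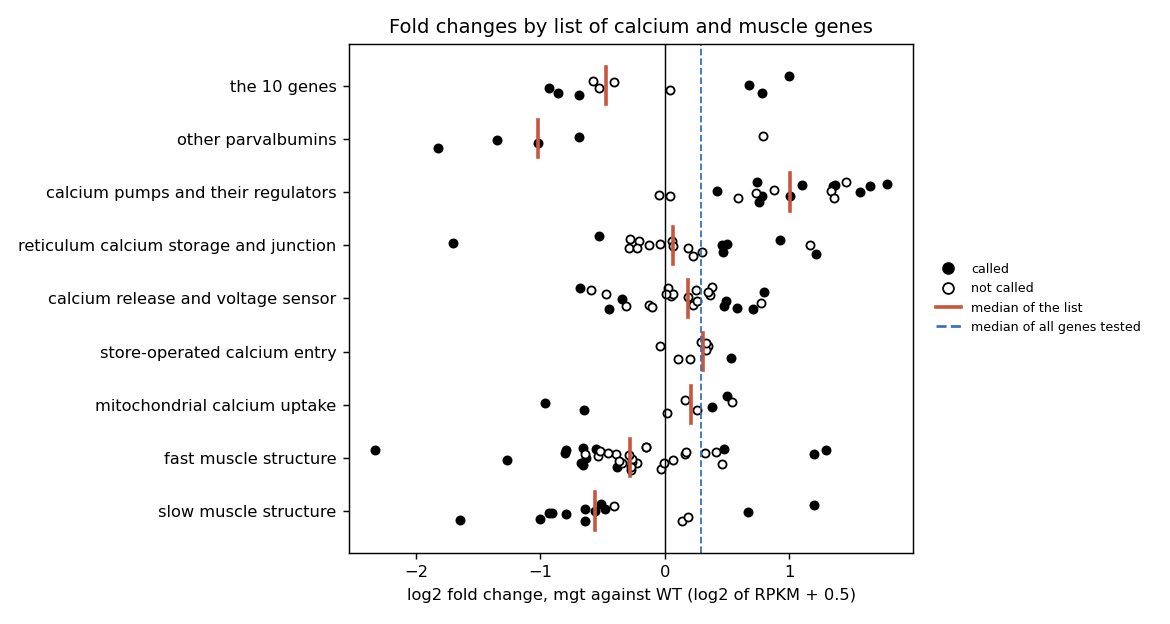
Log2 fold change of *mgt* against WT (horizontal axis) of each gene tested in the 10 genes, 6 other calcium lists and fast and slow muscle structure, filled where called, with the median of each list in red and that of all genes tested (0.29) as a dashed line. Pumps and their regulators lie mostly above 0 (median 1.01), and other parvalbumins mostly below 0 (median -1.02).

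The genes nearest to each of the 10 in profile were found among 5450 named genes with a mean of at least 10 RPKM, by the root mean square difference of the centred log2 profiles over the 6 libraries. The nearest to *pvalb1* was *rpl15* (0.026) and to *pvalb3* *rpl36* (0.022), both ribosomal protein genes. The nearest to *pvalb2* was *tpma* (0.051), the tropomyosin of fast fibers, and to *casq1b* it was *myl1* (0.034), a fast myosin light chain. *pvalb4* was nearest to *ndufa8* (0.023), a subunit of respiratory complex I. The nearest to *casq1a* was *pgam2* (0.148), a muscle phosphoglycerate mutase, the loosest match of the 10.

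Among the genes that rose, *ryr1b* was nearest to *cacna1sb* (0.085), which was also second for *ryr3* (0.104) after the laminin gene *lamb2* (0.081). *atp2a1* was nearest to *mmp11b* (0.051), a matrix metalloproteinase, and then to the small heat shock protein gene *hspb6* (0.062), which was also second for *ryr1b* (0.105). *casq2* was nearest to *prelid1a* (0.020). These distances describe 6 libraries of 2 genotypes.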

How the data were processed

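According to the labels, the authors used FastQC, cutadapt 5.2, STAR with the GRCz11 genome, and HTSeq. They deposited RPKM values per gene and library, to 2 decimals. The gene length behind the RPKM and the use of strand are not given in the sources used here. Ribosomal RNA was depleted with an NEBNext or a Ribo-Zero Plus kit, and which pool had which is not given. The authors' table also holds means, SD and a ratio per genotype. Their WT mean equals the mean of WT replicates 2 and 3 in 32520 of 32520 genes (tolerance 1e-04), and these columns were not used further. The 37 mitochondrially encoded genes are listed at 0 in every library.

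Library totals were read from the steps of RPKM in genes spanning at most 160 bases, of which 99.7% to 100% came out as whole reads (within 0.1 read). For the 20435 of 32520 genes whose mean reached 0.5 RPKM, log2(RPKM + 0.5) was fitted in limma 3.58.1 (R 4.3.3; lmFit, trended eBayes), and p-values were adjusted by Benjamini-Hochberg over these genes. The study used DESeq2 on counts, which were not used here. The code was tested on simulated data. Shares and ratios were compared with exact two-sided permutation tests of the means. Tables were handled in Python 3.11.15 with pandas 2.3.3 and numpy 2.4.6, and plots drawn with matplotlib 3.10.9.

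The 10 genes and the lists were chosen with earlier results of these data known. Named genes were the 10 genes, their paralogs, the 3 most abundant genes of each calcium list, the 2 nearest genes in profile, and *plod3*; a gene that this rule also names is not reported here. Others are named where a count of 5 or fewer, or a single feature, called for it after the values were seen. Alternatives were pseudocounts of 0.1 and 1, no filter and a filter at 1 RPKM, rescaling to the same sum, median-of-ratios factors, quantile normalization, subtraction of a lowess trend with gene span, eBayes without trend or robust, a larger fold threshold, the replicate number as a block, and each library left out.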

Additional observations from a re-analysis of the deposited data

How the results depend on the processing

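*pvalb4* was called lower in 17 of 17 alternatives other than the larger fold threshold, and *ryr3* higher in 16 of the 17, all but the span trend. The 10 genes gave 6 calls, 2 with no filter, 3 with the span trend subtracted, 0 at a fold change of at least 2.38 and 2 to 9 with a library left out, highest without WT replicate 1. Genes called in all were 9688, 2174 at the larger threshold and 4042 to 14352 with a library left out (14352 without WT replicate 1). Of the calcium genes 35 were called, 20 with no filter and 13 to 61 with a library left out (61 without WT replicate 1). Leaving out libraries leaves fewer samples, and no filter adds low genes to the test, but the cause of these changes was not tested.

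Scaling moved the split of higher and lower calls from 6494 and 3194 to 4845 and 4972 with median-of-ratios factors, 4672 and 5338 with quantile normalization and 8857 and 1903 at the same sum, as the median of all genes went from 0.29 to 0.03, -0.002 and 0.49. Median-of-ratios factors turned *casq2* (-0.26), *atp2a2a* (-0.25), *tmem38a* (-0.24), *calm3b* (-0.04) and *stim1a* (-0.06). Quantile normalization turned *casq2* (-0.03), *atp2a1l* (0.22), *atp2a2a* (-0.21), *fkbp1aa* (0.15), *stimate* (-0.05), *stim1a* (-0.20) and *orai1b* (-0.12), and it gives 0 for *pvalb1* and *pvalb2*, whose ranks are the same in every library. The same sum turned *atp2a1l* (0.18), and the span trend turned *atp2a1l* (0.01), *atp2a2a* (-0.22), *ryr1a* (-0.003) and *stim1a* (-0.15).

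With a library left out, log2 fold changes ranged from -0.03 to 0.09 for *casq2*, from -0.21 to 0.10 for *atp2a1l*, from -0.10 to 0.12 for *atp2a2a* and from -0.12 to 0.20 for *tmem38a*. The share of *pvalb2* differed by -1.20 to 0.665 percentage points. Same-numbered WT and *mgt* libraries correlated at -0.03, 0.03 and 0.027 in their deviations from the mean of their genotype. These values show no pairing but do not settle whether a number marks a shared clutch or day, which no label gives. With the replicate number as a block, 8121 genes, 5 of the 10 genes (*casq1a* was lost, limma adjusted p = 0.06) and 27 calcium genes were called. Low genes rest on few reads and are the least precise.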
